A study of Homo sapiens with 4 samples.

Results

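The genes described here encode glutathione transferases, together with the aldehyde dehydrogenase gene ALDH2 and the glycosyltransferase gene UGT8. They were picked by name: every gene whose symbol opens with GST and a class letter from A, K, M, O, P, T or Z, with ALDH, AKR, CYP, UGT or SULT, or with ABCA to ABCG, in each case followed by a digit. Of 14884 genes with a named transcript cluster on the array, 24 had such a symbol. Among these, 19 were glutathione transferase genes, 5 of the alpha class (GSTA), 6 of the mu class (GSTM, the pseudogene GSTM2P1 included), 4 of the theta class (GSTT), 2 of the omega class (GSTO) and 1 each of the pi and kappa classes. The other 5 were ALDH2, UGT8, the antisense RNAs ALDH1L1-AS2 and ABCC5-AS1, and the pseudogene ABCA15P. No cytochrome P450, aldo-keto reductase or sulfotransferase gene and no protein-coding ABC transporter gene, the efflux pump genes ABCB1, ABCC1, ABCC2, ABCC3 and ABCG2 included, was among them. The set is therefore no survey of drug efflux or of oxidative metabolism: RefSeq lists 187 protein-coding genes with such symbols, of which 19 had a named cluster, and the remainder are not analysed here.

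RNA came from HCT116 cells, a line established from a human colorectal carcinoma. Starting 24 h after seeding, the cultures received 2 µM MS-275 plus 1 mM hydroxyurea, 2 µM MS-275 alone, 1 mM hydroxyurea alone, or no drug, for 24 h. MS-275 (entinostat) is an inhibitor of HDAC1, HDAC2 and HDAC3, and hydroxyurea stalls replication forks by inhibiting ribonucleotide reductase. Each condition was read on 1 Affymetrix GeneChip Human Gene 2.0 ST array, so the differences below are unreplicated and carry no p-value.

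Glutathione transferases attach the tripeptide glutathione to electrophiles, among them products of lipid peroxidation and many anticancer drugs, which makes these compounds soluble and ready for export. The classes differ in substrates and in tissue: alpha enzymes are abundant in liver and small intestine, GSTP1 is the main form of many epithelia and tumours, and omega enzymes act as thiol transferases and dehydroascorbate reductases. Several of these genes are switched on by NRF2, which binds antioxidant response elements and is kept low by its adaptor KEAP1, and by the ligand-activated receptor AHR, which binds xenobiotic response elements. GSTA2, GSTA1, GSTA5, GSTA3 and GSTA4 lie in that order in a gene cluster on chromosome 6. The same holds for GSTM4, GSTM2, GSTM1, GSTM5 and GSTM3 on chromosome 1, for GSTO1 and GSTO2 on chromosome 10, and for GSTT2B and GSTT2 on chromosome 22.

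The sequence before the transcription start is shown for 5 of these genes, because GSTA2, GSTA1, GSTA4 and UGT8 had the higher values with MS-275 that are described below and GSTP1 is known for an antioxidant response element. Each line gives the 150 bases upstream of the start, from 5′ to 3′ on the gene's own strand, taken from RefSeq on GRCh38.p14. The lines for GSTA2 (chr6:52763476-52763625, minus strand) and GSTA1 (chr6:52803817-52803966, minus strand) have capitals where these genes differ from each other.
GSTA2: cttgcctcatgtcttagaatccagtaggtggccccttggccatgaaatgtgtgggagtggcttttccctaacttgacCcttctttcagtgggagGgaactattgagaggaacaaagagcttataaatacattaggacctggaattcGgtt
GSTA1: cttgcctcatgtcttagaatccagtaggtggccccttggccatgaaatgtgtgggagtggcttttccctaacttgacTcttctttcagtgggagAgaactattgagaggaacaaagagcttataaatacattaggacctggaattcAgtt
Only 3 of these 150 bases differed, and over 250 bases upstream 243 (97.2%) were identical. GSTA4 (chr6:52995285-52995434, minus strand) has capitals at its match to the core of the antioxidant response element, spelled TGACNNNGC.
GSTA4: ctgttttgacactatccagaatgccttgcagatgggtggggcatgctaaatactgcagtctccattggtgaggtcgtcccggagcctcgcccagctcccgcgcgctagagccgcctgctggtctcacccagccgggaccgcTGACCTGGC
UGT8 (chr4:114598252-114598401, plus strand, the first of 3 start sites listed for it) has capitals at 2 matches to the xenobiotic response element core GCGTG, both on the opposite strand, and at 1 GC box, GGGCGG.
UGT8: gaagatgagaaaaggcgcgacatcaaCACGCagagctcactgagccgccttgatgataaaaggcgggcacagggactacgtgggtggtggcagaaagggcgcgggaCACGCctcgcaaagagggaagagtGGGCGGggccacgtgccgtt
GSTP1 (chr11:67583662-67583811, plus strand) has capitals at an antioxidant response element core that overlaps an AP-1 site, TGANTCA, and at 2 GC boxes.
GSTP1: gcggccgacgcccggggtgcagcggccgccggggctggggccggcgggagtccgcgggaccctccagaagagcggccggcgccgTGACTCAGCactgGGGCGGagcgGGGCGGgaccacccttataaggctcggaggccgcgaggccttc
GSTA2 and GSTA1 carry a TATA box, TATAAA, in these bases and no match to the other motifs.

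Promoters of 300 bases, from 250 before to 50 after the start, were at hand for 18 of the 24 genes, with 21 start sites. The theta genes GSTT2, GSTT2B and GSTT1 and ALDH2 were not among them. Searched on both strands, TGACNNNGC was found in 6 of the 21 promoters and in 13.3% of all 35116 human promoters, and GCGTG in 7 of 21 and in 36.5% of all. TGANTCA, which can overlap TGACNNNGC, was found in 2 of 21 and in 7.71% of all. GGGCGG was found in 11 of 21 and in 45.0% of all, and TATAAA in 3 of 21 (GSTA1, GSTA2 and GSTO1) and in 11.5% of all. A match is a run of letters and not a measured binding site. The 21 promoters are not independent, and enrichment was not tested. The 6 with TGACNNNGC include the paralogs GSTM1 and GSTM5 and the antisense RNA ABCC5-AS1.

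The authors summarised the arrays by RMA into 1 linear intensity per transcript cluster. The median intensity over 53617 clusters lay between 45.9 and 47.1 on the 4 arrays, which the quantile step of RMA makes alike by construction. All differences are ratios of intensities between arrays for the same cluster, without a pseudocount. Non-additivity is what remains, on the log2 scale, when the differences seen with MS-275 alone and with hydroxyurea alone are subtracted from that seen with the combination. Over the 7649 genes whose mean intensity reached the median of the named clusters (90.5), its robust SD was 0.25, which corresponds to an SD of 0.18 on the log2 scale for a difference between 2 arrays. Over the 7235 dimmer genes these values were 0.34 and 0.24. This spread is no replicate error, since true departures from additivity add to it. Of 12 markers of colon epithelium 11 were named, and 4 (EPCAM, KRT8, KRT18 and KRT19) lay above the filter. The summed intensity of the 11 was 4228 with MS-275/hydroxyurea, 4682 with MS-275, 4036 with hydroxyurea and 3901 in untreated cells. Of 14 markers of other cells 6 were named, and CD68 alone lay above the filter, at intensities of 284, 231, 243 and 177 in the same order of conditions.

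Of the 24 genes, 9 had a mean intensity above the filter: UGT8, ALDH2, GSTT2B, GSTT2, GSTP1, GSTO2, GSTO1, GSTK1 and GSTM4. The other 15 were dimmer, 12 glutathione transferase genes among them, including all 5 alpha genes. Intensities near the background compress ratios, and the folds of these dimmer genes are uncertain. The plot of intensities by gene and condition shows both sets.

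**Figure D1:**
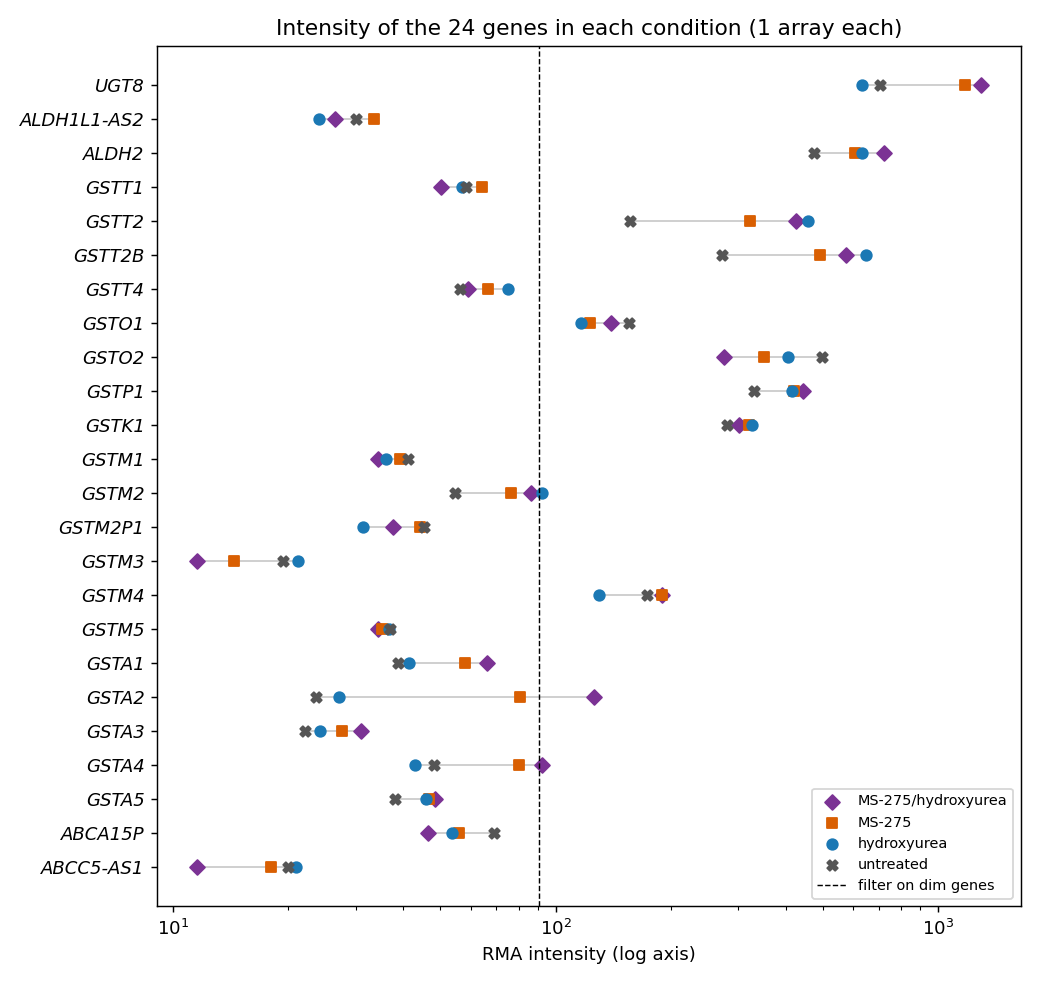
RMA intensity (log axis) of each of the 24 genes on the MS-275/hydroxyurea, MS-275, hydroxyurea and untreated arrays, 1 point per array, joined by a line over their range. The dashed line is the filter at 90.5; UGT8 separates by MS-275, whereas for GSTT2 and GSTT2B the untreated array stands alone at the low end.

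The theta class genes GSTT2 and GSTT2B showed the largest differences among the 9 brighter genes. GSTT2B encodes a transferase that acts on small organic electrophiles, and RefSeq lists its near-identical copy GSTT2 as a transcribed pseudogene. GSTT2 had intensities of 426 with MS-275/hydroxyurea, 323 with MS-275, 457 with hydroxyurea and 157 in untreated cells. The 3 drug-treated arrays were thus all high, and the untreated array alone was low. GSTT2 was 2.72-fold higher with MS-275/hydroxyurea, 2.06-fold higher with MS-275 and 2.92-fold higher with hydroxyurea than in untreated cells. Only 3 of the 7649 genes had a larger ratio for hydroxyurea alone. GSTT2B had intensities of 576 with MS-275/hydroxyurea, 493 with MS-275, 650 with hydroxyurea and 272 in untreated cells. That is the same order of conditions as for GSTT2, with ratios to untreated cells of 2.12, 1.81 and 2.39 for MS-275/hydroxyurea, MS-275 and hydroxyurea. For hydroxyurea alone, 17 of the 7649 genes lay higher than GSTT2B.

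Adding a second drug did not raise either theta gene by 1.5-fold. MS-275/hydroxyurea against hydroxyurea alone gave 0.93-fold for GSTT2 and 0.89-fold for GSTT2B. MS-275/hydroxyurea against MS-275 alone gave 1.32-fold for GSTT2 and 1.17-fold for GSTT2B. Non-additivity was negative, at -1.15 for GSTT2 and -1.03 for GSTT2B on the log2 scale, and only 6 and 8 of the 7649 genes had lower values than these. The 3 comparisons with untreated cells share 1 array, so a response to either drug and a deviation of the untreated array cannot be told apart. The clusters of GSTT2 and GSTT2B may read the same transcripts, so these are not independent observations.

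Other genes of that locus had smaller differences. DDT, the D-dopachrome tautomerase gene that lies between GSTT2B and GSTT2, had intensities of 418 with MS-275/hydroxyurea, 418 with MS-275, 517 with hydroxyurea and 409 in untreated cells. Its ratios to untreated cells were 1.02, 1.02 and 1.26 in the order MS-275/hydroxyurea, MS-275 and hydroxyurea. GSTT4, the next theta gene beyond GSTT2, was dim, at 58.8 with MS-275/hydroxyurea, 66.6 with MS-275, 75.1 with hydroxyurea and 56.2 in untreated cells. It was likewise highest with hydroxyurea alone, at 1.34-fold. GSTT1, the theta gene that is lost from many human genomes, had dim intensities between 50.1 and 64.0 with no ratio beyond 1.5-fold.

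UGT8 was the only gene of the 9 that passed 1.5-fold upwards with MS-275 both without and with hydroxyurea. It encodes ceramide galactosyltransferase, the enzyme that makes the galactosylceramide of myelin. UGT8 is in the set by its symbol and not for a part in drug conjugation. Its intensity was 1299 with MS-275/hydroxyurea, 1180 with MS-275, 632 with hydroxyurea and 707 in untreated cells. Both arrays with MS-275 lay above both arrays without it. The ratio of MS-275 to untreated cells was 1.67, and that of MS-275/hydroxyurea to hydroxyurea alone was 2.06. For the second of these ratios, 155 of the 7649 genes lay higher. Hydroxyurea gave 0.89-fold without MS-275 and 1.10-fold with it. The count of 1 in 9 compares with 4.85% of the 7649 genes that passed this rule.

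ALDH2, the mitochondrial dehydrogenase that clears acetaldehyde, had intensities of 724 with MS-275/hydroxyurea, 607 with MS-275, 634 with hydroxyurea and 475 in untreated cells. Each drug was accompanied by a higher value, 1.28-fold for MS-275 and 1.34-fold for hydroxyurea, and the drugs in combination gave 1.52-fold. Its non-additivity of -0.16 lay within the spread over all genes. ALDH2 passed 1.5-fold in this last comparison only.

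The adjacent omega genes were both lower than in untreated cells with each single drug, and they differed most with the combination. GSTO2, a dehydroascorbate reductase, had intensities of 276 with MS-275/hydroxyurea, 352 with MS-275, 406 with hydroxyurea and 496 in untreated cells. It was lowest with both drugs, at 0.56-fold of untreated cells, with 0.71-fold for MS-275 alone and 0.82-fold for hydroxyurea alone. The ratios in the presence of the other drug were close to these, 0.68 for MS-275 and 0.78 for hydroxyurea, and non-additivity was -0.06. No other gene of the 9 was lower by 1.5-fold in that comparison, in which 164 of the 7649 genes lay below GSTO2. GSTO1, which reduces mixed disulfides of glutathione and dehydroascorbate, had intensities of 140 with MS-275/hydroxyurea, 123 with MS-275, 116 with hydroxyurea and 156 in untreated cells. Each single drug gave a lower value than the untreated array, 0.79-fold for MS-275 and 0.75-fold for hydroxyurea, whereas MS-275/hydroxyurea gave 0.90-fold. Its non-additivity was 0.60, with 186 of the 7649 genes above it, but none of its ratios reached 1.5-fold.

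**Figure D2:**
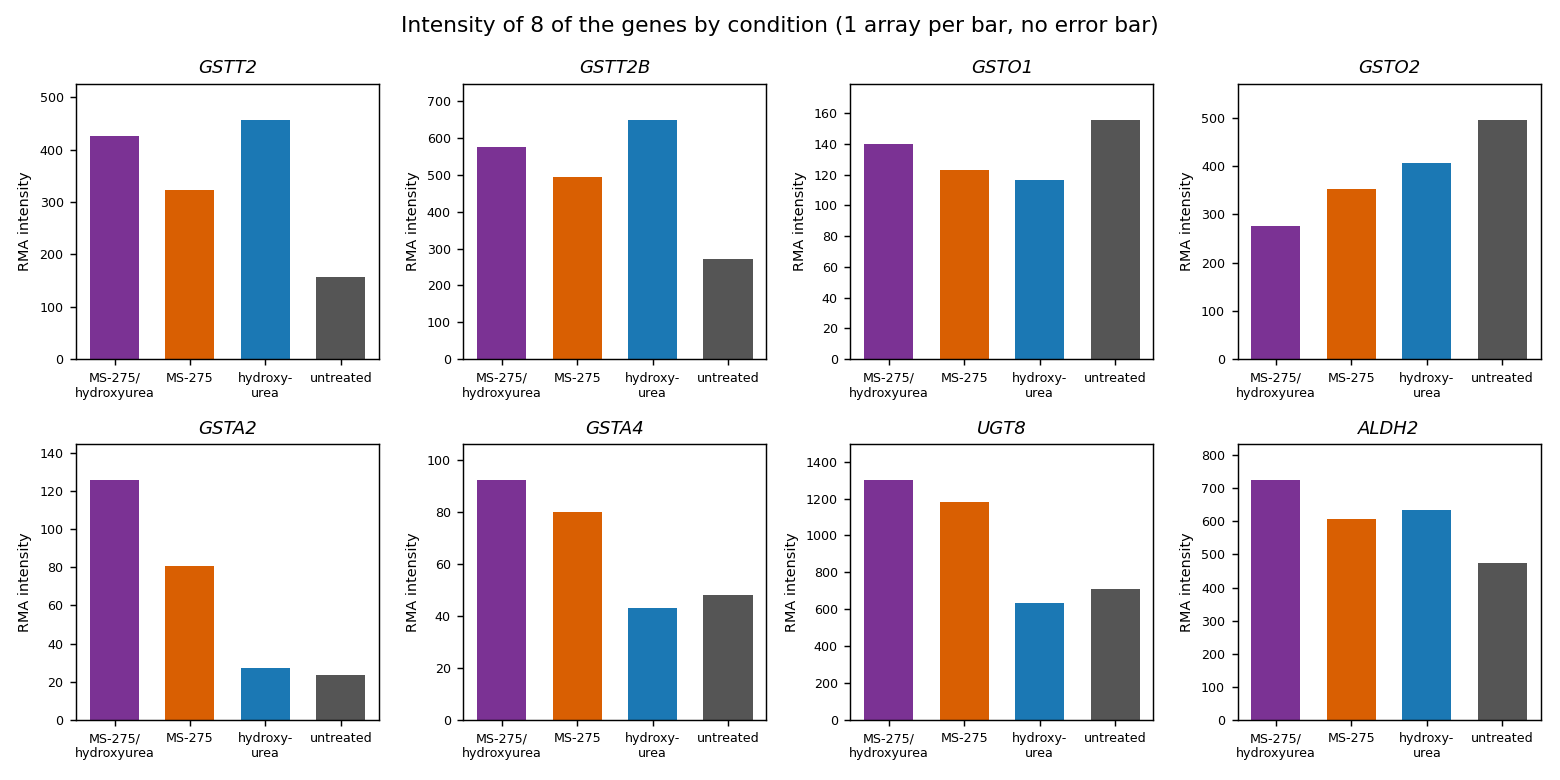
RMA intensity of GSTT2, GSTT2B, GSTO1, GSTO2, GSTA2, GSTA4, UGT8 and ALDH2 by condition, with each bar 1 array and no error bar, on axes that start at 0. GSTT2 and GSTT2B are low on the untreated array only, UGT8, GSTA2 and GSTA4 are high on both MS-275 arrays, and GSTO2 is lowest with both drugs.

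The pi, kappa and mu genes above the filter stayed within 1.5-fold in every comparison. GSTP1, the transferase that many tumours overproduce, had intensities of 444 with MS-275/hydroxyurea, 420 with MS-275, 416 with hydroxyurea and 330 in untreated cells. It was 1.35-fold, 1.27-fold and 1.26-fold higher in the treated conditions in that order, so its untreated array too was the lowest. GSTK1, a transferase of mitochondria and peroxisomes, was highest with hydroxyurea, at 327, and lowest in untreated cells, at 282. GSTM4, a mu class enzyme, had intensities of 190 with MS-275/hydroxyurea, 190 with MS-275, 130 with hydroxyurea and 174 in untreated cells. It was low on the hydroxyurea array alone, at 0.75-fold of untreated cells, and 1.46-fold higher with MS-275/hydroxyurea than with hydroxyurea.

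All 5 alpha genes were dim. Their values with MS-275 were higher, from 1.05-fold to 4.65-fold, but only GSTA2 and GSTA4 passed 1.5-fold in both backgrounds. Of all 14884 named genes, 7527 were higher with MS-275 without hydroxyurea and 7301 with it. GSTA2, an enzyme that also reduces lipid hydroperoxides, had intensities of 126 with MS-275/hydroxyurea, 80.8 with MS-275, 27.1 with hydroxyurea and 23.6 in untreated cells. Both arrays with MS-275 lay far above both arrays without it, with ratios of 3.43 without hydroxyurea and 4.65 with it. No detection call was used, and whether the intensities of 27.1 and 23.6 lay above background was not tested. With MS-275/hydroxyurea GSTA2 was 5.33-fold higher than in untreated cells. GSTA4, which conjugates the lipid peroxidation product 4-hydroxynonenal, had intensities of 92.1 with MS-275/hydroxyurea, 80.1 with MS-275, 42.8 with hydroxyurea and 48.2 in untreated cells. MS-275 gave 1.66-fold without hydroxyurea and 2.15-fold in its presence. GSTA1, whose promoter is printed above beside the almost identical one of GSTA2, had intensities of 66.1 with MS-275/hydroxyurea, 57.8 with MS-275, 41.4 with hydroxyurea and 38.7 in untreated cells. Its MS-275 ratio was just short of 1.5-fold without hydroxyurea and was 1.60 with it. GSTA3 was 1.25-fold and 1.28-fold higher with MS-275 and GSTA5 1.23-fold and 1.05-fold higher, without and with hydroxyurea. With hydroxyurea alone, the 5 alpha genes lay between 0.89-fold (GSTA4) and 1.21-fold (GSTA5) of untreated cells. GSTA1 and GSTA2 transcripts are similar enough for their clusters to share signal. Whether the higher GSTA1 value is its own was not tested.

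Dim mu genes went in several directions. GSTM2 had intensities of 86.2 with MS-275/hydroxyurea, 76.5 with MS-275, 92.4 with hydroxyurea and 54.4 in untreated cells, so that, as for GSTT2, the untreated array was the low one. Hydroxyurea alone gave 1.70-fold, and its non-additivity was -0.59. GSTM3 was lower on the arrays with MS-275, at 11.5 with MS-275/hydroxyurea and 14.4 with MS-275, against 21.1 with hydroxyurea and 19.3 in untreated cells. GSTM1 and GSTM5 stayed between 34.3 and 41.2 on all arrays. The mu genes are close paralogs, so signal at these low levels may be shared among them.

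The pseudogenes ABCA15P and GSTM2P1 and the antisense RNAs were all dim, and they are included where counts cover all 24 genes. ABCA15P had intensities of 46.3 with MS-275/hydroxyurea, 55.9 with MS-275, 53.5 with hydroxyurea and 69.1 in untreated cells, which is 0.67-fold with MS-275/hydroxyurea. ABCC5-AS1 was at 11.5 with MS-275/hydroxyurea, 18.0 with MS-275, 20.9 with hydroxyurea and 20.0 in untreated cells. GSTM2P1 lay between 31.3 and 45.1 and ALDH1L1-AS2 between 24.0 and 33.6. None of these values speaks for the ABC transporter or dehydrogenase gene in its name.

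Counted over the 9 brighter genes, the differences depended on whether untreated cells were the only comparator. In both backgrounds, that is, without and with the other drug, MS-275 gave 1 gene (UGT8) past 1.5-fold upwards and 0 downwards, where 2.92% of all 7649 genes were lower. With hydroxyurea, 0 of 9 were higher and 0 of 9 lower in both backgrounds, beside 1.36% and 0.275% of all genes. Against untreated cells alone, MS-275 gave 3 of 9 higher (GSTT2, GSTT2B and UGT8) and 0 lower, beside 6.94% and 6.84% of all genes. Hydroxyurea against untreated cells gave 2 of 9 higher (GSTT2 and GSTT2B) and 0 lower, beside 3.12% and 1.27%. MS-275/hydroxyurea against untreated cells gave 4 of 9 higher (ALDH2, GSTT2, GSTT2B and UGT8) and 1 lower (GSTO2), beside 11.7% and 6.84%. GSTT2 and GSTT2B make up 2 of each of these counts of higher genes against untreated cells.

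Without the filter, MS-275 in both backgrounds gave 3 of the 24 genes higher (GSTA2, GSTA4 and UGT8) and 0 lower, beside 3.55% and 1.80% of all 14884 genes. With hydroxyurea 0 of 24 were higher and 0 lower in both backgrounds, beside 0.887% and 0.215%. With MS-275/hydroxyurea, 8 of 24 were higher than in untreated cells and 3 (GSTO2, GSTM3 and ABCC5-AS1) were lower, beside 8.79% and 5.46%. The 4 higher genes that the filter had set aside were GSTA1, GSTA2, GSTA4 and GSTM2.

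Over the 9 genes, the median log2 difference with MS-275 was 0.35 without hydroxyurea and 0.10 with it, beside -0.01 and 0.00 over all 7649 genes. With hydroxyurea it was 0.21 without MS-275 and 0.14 with it, beside 0.01 and 0.03 over all genes. For MS-275/hydroxyurea against untreated cells the median was 0.43, beside 0.01 over all genes. In that comparison 7 of the 9 genes were above 0, beside 3910 of all 7649 genes. These 7 include GSTT2 and GSTT2B, which may read the same transcripts. Over the 7 glutathione transferase genes among the 9, the median was 0.19 with MS-275 without hydroxyurea and -0.10 with it, and 0.13 for MS-275/hydroxyurea against untreated cells. Over all 24 genes these medians were 0.22, 0.00 and 0.12.

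**Figure D3:**
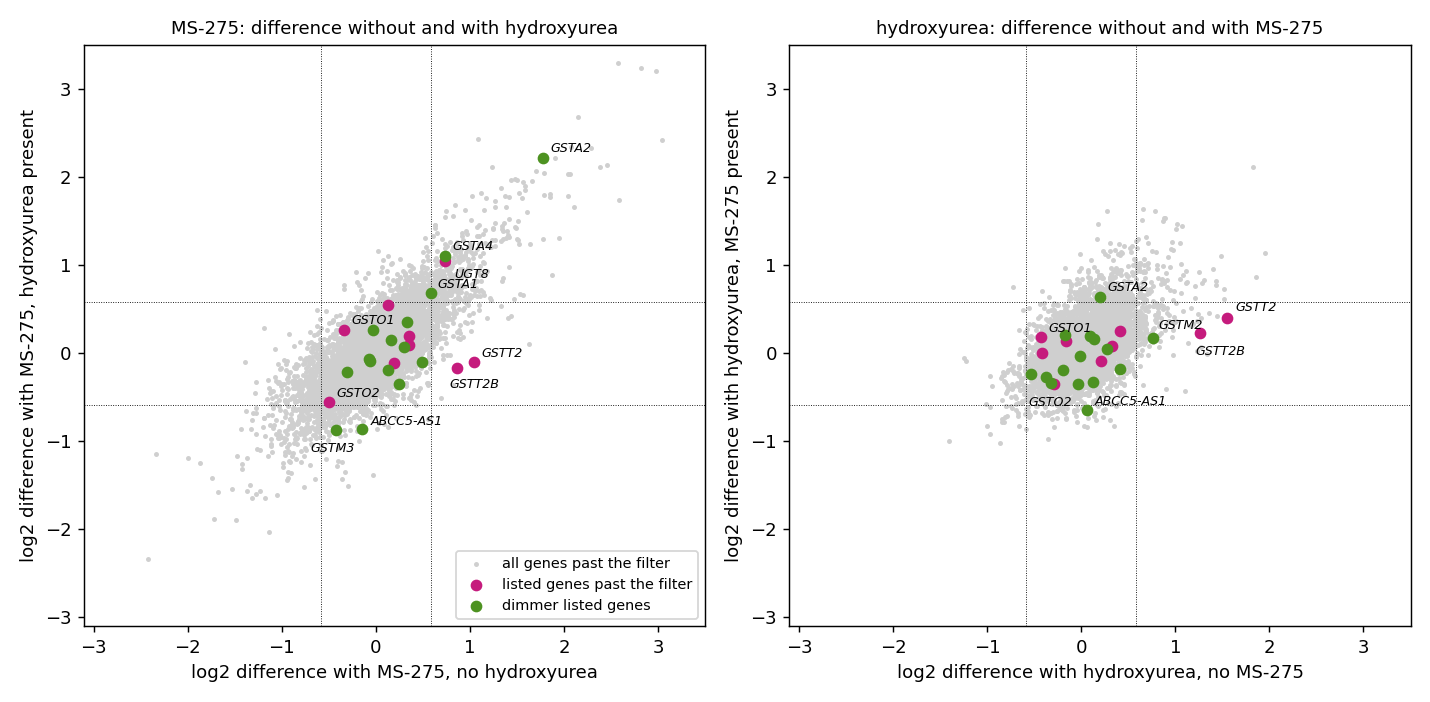
Log2 difference of MS-275 (left panel) and hydroxyurea (right panel), without the other drug on the x axis and in its presence on the y axis, for the 24 genes (coloured) and all 7649 genes past the filter (grey), with dotted lines at 1.5-fold. UGT8, GSTA2 and GSTA4 pass both lines for MS-275, whereas GSTT2 and GSTT2B pass the vertical line only in each panel.

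Non-additivity ranged from -1.15 for GSTT2 to 0.60 for GSTO1 among the 9 brighter genes, with a median of -0.16, beside 0.02 over all 7649 genes. GSTM4 had 0.42, UGT8 0.30 and GSTK1 -0.30, each somewhat outside 1 robust SD of all genes. Among the dimmer genes, GSTA2 had 0.44 and GSTA4 0.37, since their MS-275 ratios were larger in the presence of hydroxyurea, while GSTT4 and GSTM2 both had -0.59. The robust SD over all dimmer genes was wider, at 0.34.

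**Figure D4:**
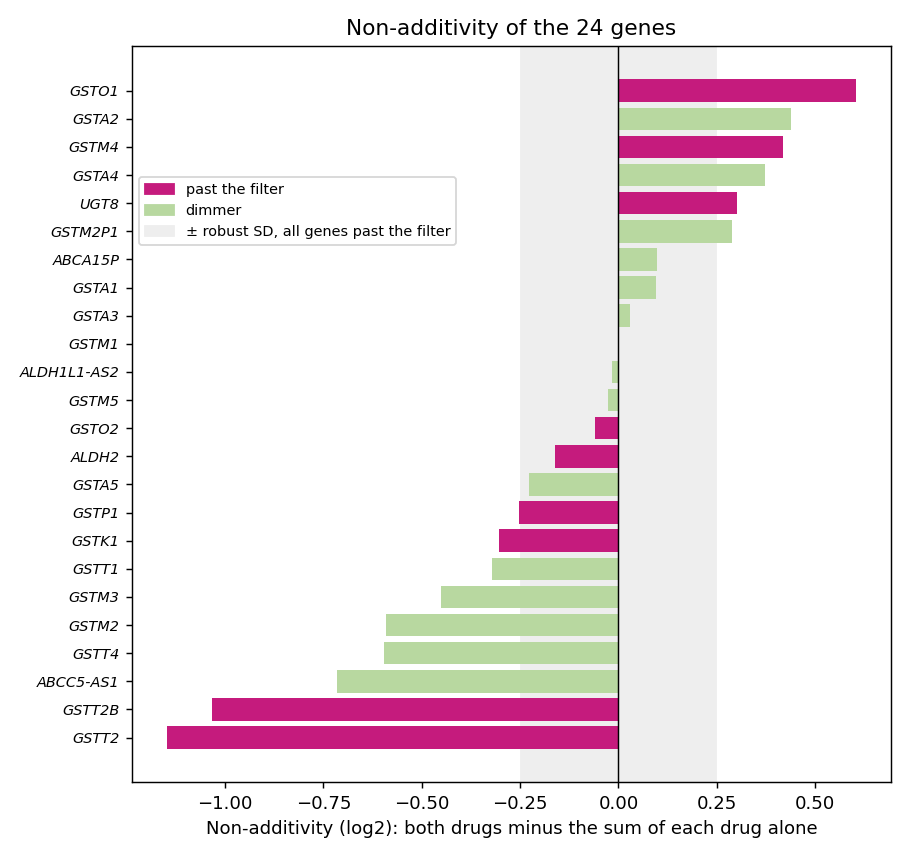
Non-additivity on the log2 scale for each of the 24 genes, with 1 bar per gene computed from the 4 arrays. The grey band is 1 robust SD of all genes past the filter (0.25), and GSTT2 and GSTT2B lie furthest below it and GSTO1 furthest above. Over the dimmer genes the robust SD was 0.34, which is not drawn.

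Partner enzymes that prepare or complete conjugation included 2 genes that passed 1.5-fold upwards with MS-275 both without and with hydroxyurea. Of 29 genes listed, 20 were named and 9 lay above the filter. TPMT, the methyltransferase that inactivates thiopurine drugs, had intensities of 1083 with MS-275/hydroxyurea, 810 with MS-275, 553 with hydroxyurea and 464 in untreated cells. MS-275 gave 1.74-fold without hydroxyurea and 1.96-fold with it. CYB5A, the cytochrome b5 that passes electrons to P450 enzymes, had intensities of 1287 with MS-275/hydroxyurea, 1511 with MS-275, 680 with hydroxyurea and 715 in untreated cells. Its ratios were 2.11 without hydroxyurea and 1.89 with it. These 2 of 9 compare with 4.85% of all 7649 genes, and none of the 9 was lower in both backgrounds, beside 2.92%. The microsomal glutathione transferases are membrane enzymes of a separate family. MGST3 was 1.39-fold and 1.37-fold higher with MS-275, while MGST1 was at 0.78-fold and 0.97-fold and MGST2 at 0.69-fold and 0.77-fold, without and with hydroxyurea. With MS-275/hydroxyurea, 4 of 9 were at least 1.5-fold higher than in untreated cells (TPMT 2.33, CYB5A 1.80, PAPSS2 1.59 and MGST3 1.59), beside 11.7% of all genes. PAPSS2 makes the sulfate donor of sulfotransferases.

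Of 20 listed genes of glutathione supply and other NRF2 targets, 13 were named and 11 lay above the filter. Against untreated cells, MS-275 alone gave 0 of 11 past 1.5-fold in either direction, beside 6.94% of all genes higher and 6.84% lower, so a count of 0 among 11 genes is close to the background. With hydroxyurea present, MS-275 gave 0 of 11 as well. The share of all genes was not computed for that comparison, so this count does not set the genes apart. Their median log2 difference with MS-275 was 0.08 without hydroxyurea and -0.07 with it. GSR, which regenerates glutathione, was at 0.92-fold and 0.95-fold, and GSS, which completes its synthesis, was at 0.85-fold and 0.80-fold. The 1 gene past the rule in any comparison was HMOX1, the heme oxygenase, which had intensities of 196 with MS-275/hydroxyurea, 175 with MS-275, 264 with hydroxyurea and 159 in untreated cells. Hydroxyurea gave 1.66-fold by itself and 1.12-fold when MS-275 was present.

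Among 25 listed regulators, 11 were named, all above the filter, and MS-275 gave 1 of them higher and 1 lower in both backgrounds, beside 4.85% and 2.92% of all genes. AHR had intensities of 2167 with MS-275/hydroxyurea, 2176 with MS-275, 1250 with hydroxyurea and 1220 in untreated cells. MS-275 gave 1.78-fold without hydroxyurea and 1.73-fold with it, while its partner ARNT was at 1.12-fold and 1.13-fold. KEAP1 had intensities of 289 with MS-275/hydroxyurea, 205 with MS-275, 660 with hydroxyurea and 530 in untreated cells. It was at 0.39-fold without hydroxyurea and 0.44-fold with it, whereas NFE2L2, the gene of NRF2, was at 0.81-fold and 0.83-fold. PPARG, a nuclear receptor of lipid metabolism, was at 0.48-fold with MS-275 alone and at 0.80-fold in the presence of hydroxyurea. With hydroxyurea, 0 genes of any of these 3 lists passed 1.5-fold in both backgrounds, beside 1.36% of all genes higher and 0.275% lower.

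**Figure D5:**
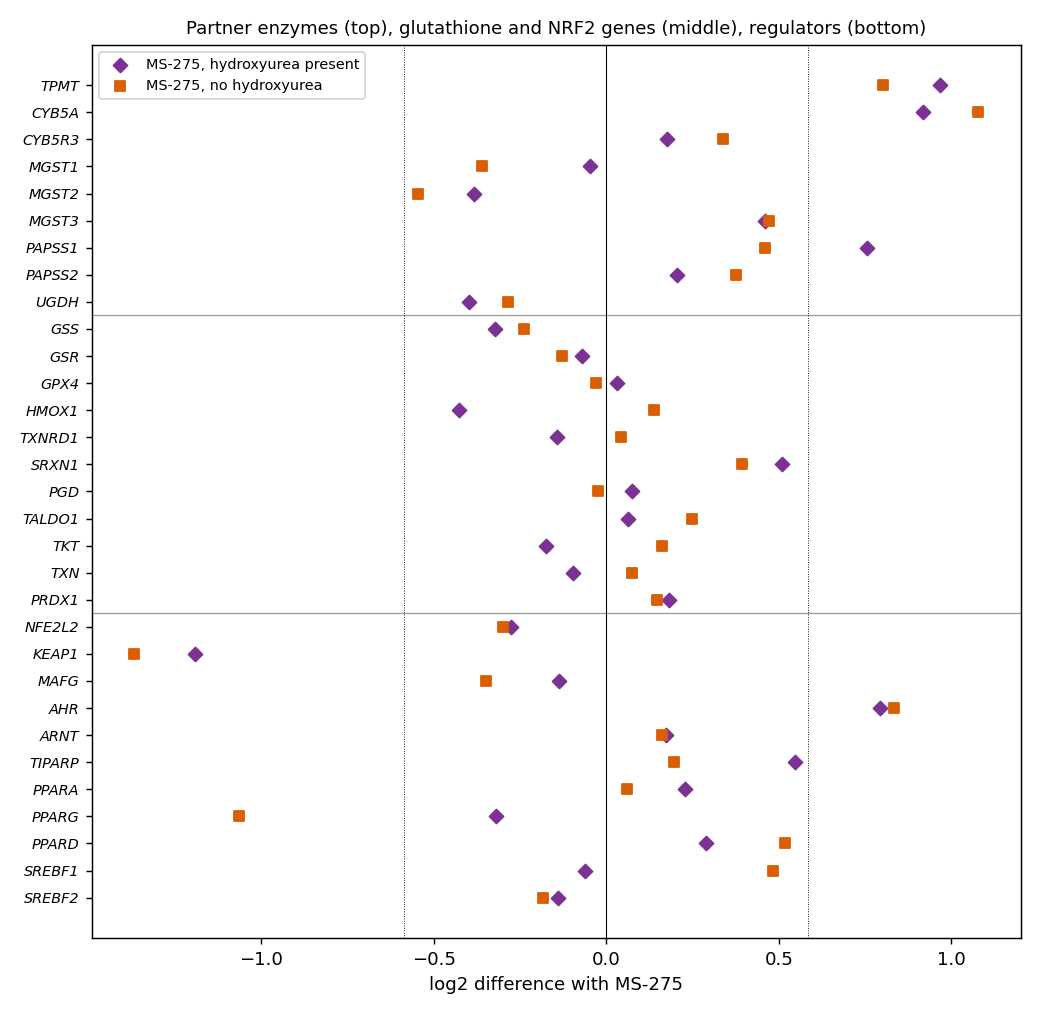
Log2 difference with MS-275 in the presence (diamonds) and absence (squares) of hydroxyurea for partner enzymes, glutathione and NRF2 target genes, and regulators that lay above the filter, with dotted lines at 1.5-fold. TPMT, CYB5A and AHR lie beyond the upper line with both symbols and KEAP1 beyond the lower one, while all 11 glutathione and NRF2 genes lie between the lines.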

How the data were processed

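Cells of 4 conditions were profiled on 1 array each. The authors processed the arrays by RMA (background correction, quantile normalization and summary of the probes of a cluster) and deposited linear intensities. For the software, its version and the genome build the entry is: not given in the sources used here. Signals of single probes and detection calls were not used here. GEO's platform annotation named 16098 of 53617 transcript clusters, 37519 are unnamed here, and for genes with several clusters the brightest was used. Any cluster annotated with several gene symbols was left out of the named genes. All 24 symbols were current in RefSeq, and each had 1 cluster.

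Ratios were computed on log2 values with numpy 2.4.6 and pandas 2.3.3 under Python 3.11.15. Promoters were aligned with Biopython 1.88, and figures were drawn with matplotlib 3.10.9. Counts used a 1.5-fold rule over the 7649 genes with a mean intensity of at least 90.5, and the counting step was tested on simulated arrays. Effects of a drug without and with the other drug share no array. Values were given for genes that passed this rule in both backgrounds, that passed 2-fold against untreated cells, that were the 10 brightest in untreated cells or that were the 5 with the largest non-additivity. Drug efflux genes were to be named too but are not analysed here. The other genes given with values (among them the alpha genes, GSTM1, GSTM2, GSTM3, GSTM5, GSTT1, GSTT4, DDT and the antisense RNAs) were chosen after their values were seen. The genes, the lists and the rules were chosen with earlier results of these data known. The precision is limited by the number of arrays, and cultures were not replicated. Alternatives were no filter, a filter at the 75th percentile, a 2-fold rule, untreated cells as the only comparator, the mean of clusters, median centring and renewed quantile normalization.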

Additional observations from a re-analysis of the deposited data

Results flagged for a closer look

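For 5 of the 9 genes above the filter, a drug was accompanied by opposite directions without and with the other drug. The difference was not tested, since each condition has 1 array. How often such opposite directions occur over all genes past the filter was not counted, so this count does not set the genes apart. GSTT2 had a log2 difference with MS-275 of 1.05 without hydroxyurea and -0.10 with it, which is a non-additivity of -1.15. GSTT2B, its near-identical copy, had 0.86 and -0.17, which is -1.03. GSTO1 had -0.34 and 0.27 for MS-275 without and with hydroxyurea, and -0.42 and 0.18 for hydroxyurea without and with MS-275, which is 0.60 in either case. The other two were smaller. GSTK1 had 0.19 and -0.11 for MS-275 without and with hydroxyurea, and 0.21 and -0.09 for hydroxyurea without and with MS-275, which is -0.30 in either case. UGT8 had -0.16 and 0.14 for hydroxyurea without and with MS-275, which is 0.30. Both of these UGT8 values lay within the SD of 0.18 for a difference between arrays over the genes past the filter. The GSTK1 values in the presence of the other drug, -0.11 and -0.09, did so too. So did the MS-275 values of GSTT2 and GSTT2B in the presence of hydroxyurea, -0.10 and -0.17.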

How the results depend on the processing

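Leaving out the filter on dim genes gave 3 genes higher with MS-275 in both backgrounds in place of 1, and for MS-275/hydroxyurea against untreated cells 8 higher in place of 4 and 3 lower in place of 1, since 24 genes and not 9 were then counted. Under a 2-fold rule these counts were 0, 2 (GSTT2 and GSTT2B) and 0, beside 1.19%, 3.78% and 1.05% of all genes past the filter. The clusters of GSTT2 and GSTT2B may read the same transcripts. Against untreated cells alone, 3 genes were higher with MS-275 and 2 with hydroxyurea. The counts were the same when the filter was set at the 75th percentile (238.5 in intensity, 7 genes) and under median centring and renewed quantile normalization. The mean of clusters could change nothing, since each gene had 1 cluster. Under alternatives for non-additivity that were chosen after seeing the data, its median lay between -0.25 and -0.04, against -0.16. Of 240 values of single genes under both normalization alternatives, 0 moved beyond the spread, and 0 of those past 1.5-fold changed sign. The largest shift was 0.05 on the log2 scale. RMA had already quantile normalized the arrays, so both normalization alternatives could change little. No paired analysis was possible because each condition has 1 array and the labels give no replicate numbers. A signal near the background limits the values of the 15 dimmer genes.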
